A study of Mus musculus with 12 samples.

Results

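Lipid uptake and lipid droplet genes were followed in brain tissue beside an intracerebral hemorrhage (ICH), in mice with and without a microglial deletion of Fabp4. The 10 genes, chosen by name from 21956 in the count table, were Cd36, Lpl, Acsl1, Dgat1, Dgat2, Plin2, Hilpda, Pnpla2, Cpt1a and Pparg, a set named by its genes with no threshold on a measured value, but proposed with earlier results of these data known. There were 12 mice in 4 groups of 3. ICH was produced by injecting collagenase into the right striatum, and tissue next to the hematoma was taken 48 h later. Sham mice had the same operation without collagenase, and the time of their tissue collection is not given in the sources used here. Both genotypes carried floxed Fabp4. The Fabp4flox/flox mice (Fabp4fl_fl in the sample names) served as controls, and the Fabp4CKO mice also carried a tamoxifen-inducible Cre recombinase, TMEM119creERT2, driven from a gene of resident microglia, and had received tamoxifen before surgery. Whether the controls received tamoxifen, and the age of these mice, are not given in the sources used here. RNA came from whole tissue, so in every result below fewer cells of a type and less RNA per cell cannot be told apart.

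Cells take up fatty acids through CD36 and release them from lipoproteins with lipoprotein lipase (Lpl). Acyl-CoA synthetases such as Acsl1 activate them, the acyltransferases Dgat1 and Dgat2 store them as triglyceride in lipid droplets, and Plin2 coats those droplets. The lipase ATGL (Pnpla2), held back by the small protein HILPDA, opens the store, Cpt1a passes the fatty acids into mitochondria for oxidation, and the nuclear receptor PPARγ (Pparg) switches on many genes of this pathway, the fatty acid carrier Fabp4 among them. Microglia and macrophages that clear myelin and dying cells can fill with such droplets.

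Total estimated counts per library ranged from 15650822 to 22406226. Fabp4, the deleted gene, had 2, 1 and 2 counts in the Sham-Fabp4flox/flox mice, 0 in each Sham-Fabp4CKO mouse, 46, 63 and 24 counts in ICH-Fabp4flox/flox and 5, 3 and 10 counts in ICH-Fabp4CKO (mice 1, 2 and 3). After ICH all 3 knockout mice thus lay below all 3 controls (log2 fold change -2.94, SE 0.62, edgeR quasi-likelihood F-test, adjusted p = 0.295 by the Benjamini-Hochberg method over all genes tested). Neuron, astrocyte and oligodendrocyte markers were present in every library of this brain tissue. Adipocyte markers, which matter for lipid genes, were at or near 0 throughout, with sums over 5 markers between 0.106 and 0.493 CPM. Some libraries stood apart. The 4 choroid plexus markers summed to between 847 and 3162 CPM in Sham-Fabp4flox/flox and to between 14.8 and 48.8 CPM in the other groups. The neuron marker Slc17a7 was at 387 CPM in ICH-Fabp4CKO mouse 2 and between 7.55 and 82.7 CPM in the other ICH mice. In sham it was at 274 and 394 CPM in Fabp4flox/flox mice 1 and 2 and between 35.9 and 81.8 CPM elsewhere. Whether the tissue sampled differed between these mice was not tested. The mitochondrial share of counts was 16.3% in ICH-Fabp4flox/flox mouse 1 and 7.90% to 11.9% elsewhere, and Y-linked genes had 1 count in ICH-Fabp4CKO mouse 1 against 1302 to 2251 counts in each other library.

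Promoters are shown first for Plin2, Hilpda and Cd36, the droplet and uptake genes whose levels moved most with ICH and that had a window in the reference. Each window is the RefSeq sequence from 250 bases before to 50 bases after a transcription start in GRCm38.p6, written 5′ to 3′ on the gene's strand, and 7 of the 10 genes had such a window. Plin2 lies at chr4:86670010-86670309 on the minus strand, Hilpda (the window of 2 that holds a match) at chr6:29272376-29272675 on the plus strand and Cd36 at chr5:17835847-17836146 on the minus strand. Capitals mark matches to CACGTG (the E-box), to ACGTG (a form of the core of a hypoxia response element, also contained in CACGTG on both strands) or to AGGTCA, the unit that PPAR and RXR bind as a direct repeat, written TGACCT where it lies on the other strand. Other forms of the hypoxia core were not searched.
Plin2: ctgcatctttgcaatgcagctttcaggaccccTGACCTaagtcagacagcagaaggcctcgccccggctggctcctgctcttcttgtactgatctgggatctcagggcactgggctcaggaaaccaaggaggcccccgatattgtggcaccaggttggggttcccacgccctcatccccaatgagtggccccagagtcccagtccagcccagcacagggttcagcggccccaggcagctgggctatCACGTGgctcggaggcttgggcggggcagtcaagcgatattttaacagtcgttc
Hilpda: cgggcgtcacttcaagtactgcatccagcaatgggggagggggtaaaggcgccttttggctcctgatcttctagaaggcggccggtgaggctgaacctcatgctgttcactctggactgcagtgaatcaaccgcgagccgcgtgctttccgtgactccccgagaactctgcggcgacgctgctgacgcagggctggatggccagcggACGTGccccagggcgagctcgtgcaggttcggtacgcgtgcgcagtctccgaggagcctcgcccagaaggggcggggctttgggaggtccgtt
Cd36: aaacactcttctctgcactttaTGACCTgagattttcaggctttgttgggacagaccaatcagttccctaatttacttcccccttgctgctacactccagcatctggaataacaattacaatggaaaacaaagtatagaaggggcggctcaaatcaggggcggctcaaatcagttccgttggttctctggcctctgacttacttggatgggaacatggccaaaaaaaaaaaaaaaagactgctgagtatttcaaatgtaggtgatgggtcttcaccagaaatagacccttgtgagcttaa
Plin2 held the E-box at position -4 and AGGTCA at -218 from the start, Hilpda held ACGTG at -43, and Cd36 held AGGTCA at -228. Searched on both strands, ACGTG was present in the windows of 21.8% of all 27025 genes, CACGTG in 8.09% and AGGTCA in 18.1%. A direct repeat of AGGTCA with 1 base between its units was found in 0.0481% of genes and in no window of the 10. Single AGGTCA matches also stood at -94 of Cpt1a and at -28 and -9 of separate starts of Pparg. These matches describe the letters in the windows and do not show binding.

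The first question was how the lipid genes stood 48 h after ICH in mice with Fabp4. In Fabp4flox/flox mice 6 of the 10 genes rose and none fell. The droplet coat gene Plin2 rose 29.4-fold, the fatty acid receptor Cd36 19.3-fold, Lpl 5.08-fold, Hilpda 3.92-fold, Cpt1a 2.34-fold and Pnpla2 2.07-fold, whereas Acsl1, Dgat1, Dgat2 and Pparg did not pass the threshold (edgeR's quasi-likelihood test, adjusted p under 0.05). Over all 14719 genes tested, 26.2% were higher and 19.3% lower by the same rule. The median log2 fold change was 1.14 over the 10 genes and 0.02 over all genes.

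In Fabp4CKO mice 7 of the 10 genes rose after ICH and none fell. Cd36 rose 357-fold, Plin2 99.4-fold, Lpl 20.4-fold, Hilpda 8.82-fold, Pparg 7.50-fold, Cpt1a 3.73-fold and Pnpla2 2.68-fold. Here 24.5% of 14737 genes were higher and 11.1% lower. The median log2 fold change of the 10 genes was 2.40, against 0.01 over all genes. These calls needed all 3 sham knockout mice. Without any single one of them none of the 10 genes passed, their lowest adjusted p being 0.0616 to 0.0628 (edgeR), although the direction of every called gene was kept. Without ICH-Fabp4CKO mouse 1, Plin2 and Lpl alone passed, and without mouse 3 all but Pparg did. Over all genes, higher calls also fell, from 3605 of 14737 to between 701 and 796 of 14943 to 14988 without 1 sham knockout mouse. They were 1435 of 14901 without ICH-Fabp4CKO mouse 1 and 2350 of 14900 without mouse 3.

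**Figure D1:**
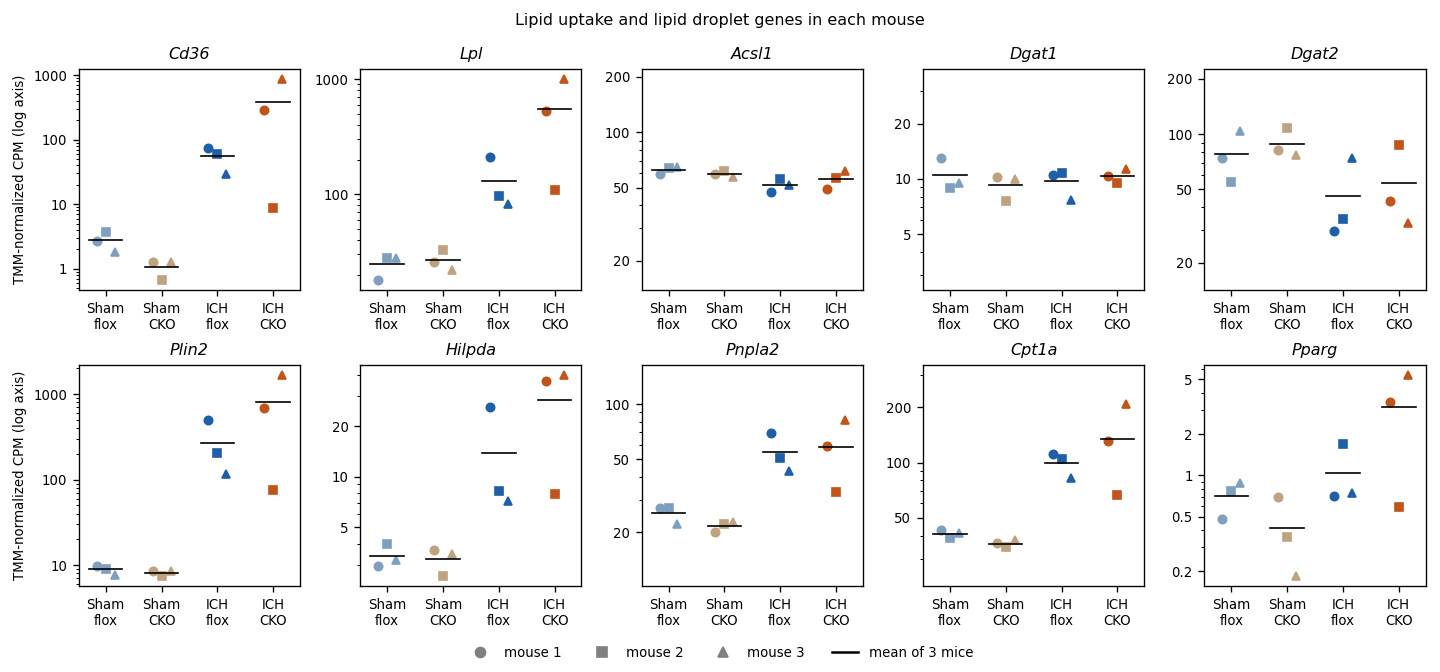
TMM-normalized CPM of the 10 lipid genes on log axes, with 1 point per mouse, 3 mice in each of the 4 groups (flox for Fabp4flox/flox) and a line at the group mean. Cd36, Lpl, Plin2, Hilpda, Pnpla2 and Cpt1a lie above both sham groups in all 6 ICH mice, and ICH-Fabp4CKO mouse 2 (square) is the lowest of its group in each of them.

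Levels below are CPM (counts per 1e+06 counts of a library, with TMM normalization over all 12 libraries), given in the order of mice 1, 2 and 3. Cd36, the fatty acid and oxidized lipoprotein receptor, was low in sham brain, at 2.70, 3.72 and 1.81 CPM in Fabp4flox/flox and 1.29, 0.672 and 1.29 CPM in Fabp4CKO. After ICH it stood at 75.4, 60.0 and 29.5 CPM in Fabp4flox/flox and at 285, 8.79 and 872 CPM in Fabp4CKO. Every ICH mouse was above every sham mouse, as held for 34.4% of all genes in Fabp4flox/flox and 33.2% in Fabp4CKO, and within ICH-Fabp4CKO the highest was 99.1-fold above the lowest. The log2 fold change was 4.27 (SE 0.41, adjusted p = 0.000479) in Fabp4flox/flox and 8.48 (SE 1.73, adjusted p = 0.0170) in Fabp4CKO by edgeR's quasi-likelihood test.

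Lpl, the lipase that frees fatty acids from circulating lipoproteins, gave 18.0, 27.9 and 27.8 CPM in Sham-Fabp4flox/flox and 26.0, 33.0 and 22.0 CPM in Sham-Fabp4CKO. The ICH values were 210.3, 96.2 and 82.1 CPM in Fabp4flox/flox and 533, 108 and 1006 CPM in Fabp4CKO. Again no ICH mouse overlapped a sham mouse. The log2 fold changes were 2.35 (SE 0.38, adjusted p = 0.00300) and 4.35 (SE 0.81, adjusted p = 0.0131) in the same tests. Acsl1, which joins long-chain fatty acids to coenzyme A, moved little. It lay between 57.1 and 64.6 CPM in the 6 sham mice, at 47.5, 55.6 and 51.6 CPM in ICH-Fabp4flox/flox and at 49.1, 56.6 and 61.9 CPM in ICH-Fabp4CKO. The Fabp4flox/flox ICH mice were all below their shams (27.4% of all genes were), yet the log2 fold change of -0.32 (SE 0.13, adjusted p = 0.0807) did not pass, and in Fabp4CKO it was -0.08 (95% confidence interval -0.38 to 0.22).

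Dgat1 and Dgat2 catalyze the last step of triglyceride synthesis, and neither passed the threshold in either genotype. Dgat1 ranged from 7.61 to 12.97 CPM in sham and from 7.71 to 11.3 CPM after ICH, so that all groups overlapped. Its 95% confidence interval on the log2 scale ran from -0.67 to 0.36 in Fabp4flox/flox and from -0.26 to 0.60 in Fabp4CKO. The Dgat2 means were lower after ICH. It measured 74.4, 55.2 and 104 CPM in Sham-Fabp4flox/flox, 82.0, 108 and 76.8 CPM in Sham-Fabp4CKO, 29.8, 34.5 and 73.7 CPM in ICH-Fabp4flox/flox and 43.5, 87.0 and 32.9 CPM in ICH-Fabp4CKO. In each ICH group 1 mouse reached sham levels and the other 2 lay below. The log2 fold change was -0.78 (SE 0.40, adjusted p = 0.141) in Fabp4flox/flox and -0.70 (SE 0.37, adjusted p = 0.164) in Fabp4CKO. Without the high mouse it passed, at -1.33 without ICH-Fabp4flox/flox mouse 3 (adjusted p = 0.00695, quasi-likelihood test) and at -1.22 without ICH-Fabp4CKO mouse 2 (adjusted p = 0.000968). Many other genes were called lower in these fits too, 3856 of 14925 in the first and 4896 of 14963 in the second. The mouse to leave out was picked here by its Dgat2 value.

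Plin2, whose protein covers the droplet surface and is widely used as its marker, was even across sham mice, with 9.88, 9.09 and 7.69 CPM in Fabp4flox/flox and 8.65, 7.39 and 8.46 CPM in Fabp4CKO. ICH brought it to 495, 202 and 117 CPM in Fabp4flox/flox and to 694, 74.9 and 1662 CPM in Fabp4CKO. The lowest ICH mouse of either genotype was well above all shams. The log2 fold change was 4.88 (SE 0.54, adjusted p = 0.000735) in Fabp4flox/flox and 6.64 (SE 1.16, adjusted p = 0.0115) in Fabp4CKO by the quasi-likelihood test. Hilpda, a hypoxia-inducible droplet protein that inhibits ATGL, had 2.94, 4.00 and 3.20 CPM in Sham-Fabp4flox/flox and 3.65, 2.55 and 3.45 CPM in Sham-Fabp4CKO. After ICH it had 26.1, 8.17 and 7.17 CPM in Fabp4flox/flox and 37.2, 7.89 and 40.1 CPM in Fabp4CKO. A single Fabp4flox/flox mouse and a pair of Fabp4CKO mice were high, and the others, though lower, still exceeded every sham. The log2 fold changes were 1.97 (SE 0.50, adjusted p = 0.0173) and 3.14 (SE 0.62, adjusted p = 0.0155) in that test. The first lost its call without Sham-Fabp4flox/flox mouse 1 or mouse 3 (adjusted p = 0.0569 and 0.0583).

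Pnpla2, which encodes the first lipase of droplet breakdown, showed a smaller change. Its values were 27.2, 27.2 and 22.2 CPM in Sham-Fabp4flox/flox, 20.2, 22.3 and 22.9 CPM in Sham-Fabp4CKO, 69.2, 51.1 and 43.5 CPM in ICH-Fabp4flox/flox and 59.2, 33.3 and 82.1 CPM in ICH-Fabp4CKO. All ICH mice exceeded all sham mice. The log2 fold change was 1.05 (SE 0.19, adjusted p = 0.00454) in Fabp4flox/flox and 1.42 (SE 0.32, adjusted p = 0.0221) in Fabp4CKO. Cpt1a, the gate of mitochondrial fatty acid oxidation, had 42.9, 38.7 and 41.6 CPM in Sham-Fabp4flox/flox and 36.4, 34.6 and 37.7 CPM in Sham-Fabp4CKO. It rose to 111, 104 and 82.2 CPM in ICH-Fabp4flox/flox and to 131, 66.4 and 208 CPM in ICH-Fabp4CKO, again without overlap. The log2 fold changes were 1.23 (SE 0.14, adjusted p = 0.000881) and 1.90 (SE 0.40, adjusted p = 0.0182) by edgeR's quasi-likelihood test.

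Pparg was barely expressed, and its values rest on few counts. There were between 4 and 17 counts per sham library, between 10 and 27 in ICH-Fabp4flox/flox and 53, 11 and 98 in ICH-Fabp4CKO. In CPM these were 0.482, 0.767 and 0.878 in Sham-Fabp4flox/flox, 0.694, 0.358 and 0.184 in Sham-Fabp4CKO, 0.704, 1.68 and 0.744 in ICH-Fabp4flox/flox and 3.43, 0.586 and 5.36 in ICH-Fabp4CKO. ICH-Fabp4CKO mice 1 and 3 stood above every other mouse, while mouse 2 lay within the sham range. The log2 fold change was 0.52 (SE 0.50, adjusted p = 0.420) in Fabp4flox/flox and 2.91 (SE 0.87, adjusted p = 0.0452) in Fabp4CKO.

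**Figure D2:**
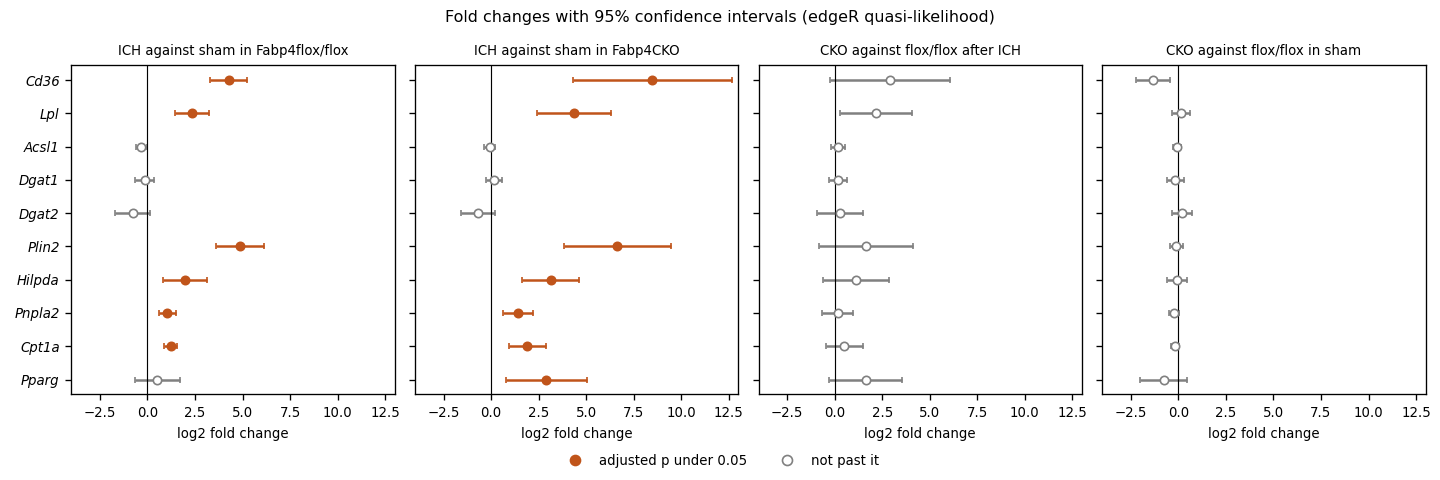
Log2 fold change of each lipid gene with its 95% confidence interval from edgeR's quasi-likelihood fit, in 4 panels for ICH against sham in each genotype and Fabp4CKO against Fabp4flox/flox after ICH and in sham. Filled points have an adjusted p under 0.05, which holds for 6 genes in the first panel, 7 in the second and none in the last 2.

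The second question was whether the lipid genes differed between genotypes after ICH. All 10 had a higher mean level in ICH-Fabp4CKO than in ICH-Fabp4flox/flox, with log2 fold changes from 0.15 to 2.89, but none passed the adjusted threshold and all 10 overlapped between the groups, where 8.3% of all genes were higher and 11.5% lower without overlap. By the same quasi-likelihood test 0% of 14600 genes passed in either direction, 12.2% had an unadjusted p under 0.05, and 56.2% had a log2 fold change above 0. DESeq2 called 255 genes higher and 323 lower, none of them among the 10. Of the lipid genes, Lpl alone was below an unadjusted 0.05, with a log2 fold change of 2.15 (95% confidence interval 0.26 to 4.05, adjusted p = 0.365). Cd36 gave 2.89 (-0.26 to 6.04, adjusted p = 0.438) and Plin2 1.65 (-0.82 to 4.13, adjusted p = 0.551). The intervals of Cd36 and Plin2 leave room for a large difference or none, and that of Lpl, not adjusted for the number of genes, for a small or a large one. Acsl1 (-0.22 to 0.55) and Dgat1 (-0.32 to 0.65) had the narrowest intervals. The sign of the mean difference was not shared by all mice, since ICH-Fabp4CKO mouse 2 was below all 3 ICH-Fabp4flox/flox mice for Plin2, Cd36, Pnpla2, Cpt1a and Pparg. Without it, 6 of the 10 genes had an unadjusted p under 0.05, beside 3041 of all 14738 genes. Still none of the 10 passed the quasi-likelihood test (lowest adjusted p 0.0697, for Cd36 with a log2 fold change of 3.46). Mfsd2a, an endothelial transporter of lysophosphatidylcholine, the phosphatidate phosphatase Lpin3 and the brain fatty acid-binding protein Fabp7 had the smallest p-values among the other lipid genes listed here. Their log2 fold changes were -1.03, -1.35 and -1.25, with adjusted p of 0.295, 0.295 and 0.269. Cell type markers also stood apart between these 2 groups, though none passed the adjusted threshold. All 7 endothelial markers were lower in ICH-Fabp4CKO without overlap, each with an unadjusted p under 0.05 and with a median log2 fold change of -1.26, near that of Mfsd2a, and they summed to 1584, 1031 and 664 CPM in ICH-Fabp4flox/flox against 488, 353 and 431 CPM in ICH-Fabp4CKO. All 6 oligodendrocyte markers were likewise lower (median -1.19), with sums of 18434 to 28453 CPM against 7137 to 11460 CPM. The monocyte and macrophage markers were above 0 for 7 of 8 (median 1.00, 3 with an unadjusted p under 0.05) and the neutrophil markers for 5 of 5 tested (median 2.98, 4 under 0.05), all overlapping between the groups. Of the 7 microglial markers, 5 were above 0 and 2 below (median 0.33, 2 with an unadjusted p under 0.05), and these overlapped as well. The part of these cell types in the lipid gene values, Mfsd2a included, was not tested.

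In sham mice the genotypes were compared by the same test. None of the 10 genes passed, beside 0.111% of 14395 genes, all lower in Fabp4CKO, and 10.2% had an unadjusted p under 0.05. Cd36 was lower in every Sham-Fabp4CKO mouse than in any Sham-Fabp4flox/flox mouse. Its log2 fold change was -1.32 (SE 0.38, adjusted p = 0.423), the sole unadjusted p under 0.05 among the 10 genes. Cd36 passed when Sham-Fabp4flox/flox mouse 3 was left out (-1.54, adjusted p = 0.0167, quasi-likelihood test). That fit, however, called 1531 genes higher and 1331 lower of all 14602, against 0 higher and 16 lower with every sham mouse kept. Of all genes, 8.86% were lower without overlap. Cpt1a also lay lower without overlap, with a log2 fold change of -0.17 (SE 0.08, adjusted p = 0.506). The choroid plexus markers given above parted the same groups, and monocyte and macrophage markers summed to 95.1, 20.7 and 16.7 CPM in Sham-Fabp4flox/flox against 14.1, 15.4 and 12.6 CPM in Sham-Fabp4CKO. Their part in the Cd36 difference was not tested. The smallest p-values among the other lipid genes were those of Etfa, a subunit of the electron transfer flavoprotein of fatty acid oxidation, the acyltransferase Agpat1 and Rxrb, with log2 fold changes of -0.35, 0.33 and 0.29 and adjusted p of 0.427, 0.451 and 0.479.

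The difference between the responses to ICH was tested as an interaction over all 12 mice, (ICH minus sham in Fabp4CKO) minus (ICH minus sham in Fabp4flox/flox). None of the 10 genes passed, beside 0.0199% of 15089 genes. All 10 estimates were above 0, as were 52.7% of all genes, and the unadjusted p was under 0.05 for Cd36 (4.15, SE 1.56, adjusted p = 0.409), Lpl (1.95, SE 0.88, adjusted p = 0.495) and Pparg (2.35, SE 1.05, adjusted p = 0.494). Unadjusted p-values under 0.05 were found for 9.94% of all genes. Among the other lipid genes Mfsd2a (-1.11), Lpin2 (0.61) and Fabp7 (-1.05) had the smallest p-values, with adjusted p of 0.180, 0.279 and 0.348. The 8 monocyte and macrophage markers were all above 0 here (median 2.82) and the 7 endothelial markers all below it (median -1.13), and their part in these estimates was not tested. Without ICH-Fabp4CKO mouse 2, Cd36 (4.73, adjusted p = 0.0220) and Lpl (2.44, adjusted p = 0.0475) passed the quasi-likelihood test, and without any other mouse none of the 10 did. The fit without mouse 2 called 260 higher and 111 lower of all 15300 genes. The comparisons share mice, so their estimates are not independent of each other.

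Within each ICH group the mice differed widely, and many of the lipid genes shared the order of the mice. In ICH-Fabp4CKO the order was mouse 3, then 1, then 2 for 8 of the 10 genes, all but Acsl1 and Dgat2, an order that 31.4% of 15089 genes had. In ICH-Fabp4flox/flox it was mouse 1, then 2, then 3 for Plin2, Cd36, Lpl, Hilpda, Pnpla2 and Cpt1a, against 32.6% of all genes. Both orders were singled out after the values were seen. Plin2, for instance, was 85.0-fold, 9.18-fold and 204-fold above the sham mean in ICH-Fabp4CKO mice 1, 2 and 3. Dgat2 was highest in the mice where those genes were lowest.

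Summed markers of monocytes and macrophages and of neutrophils followed the same orders, but not every single marker did. The 8 monocyte and macrophage markers (Ccr2, Ly6c2, Lyz2, F13a1, Ms4a7, Mrc1, Arg1 and Gpnmb) summed to 2649, 2151 and 1051 CPM in ICH-Fabp4flox/flox and to 8675, 1605 and 16418 CPM in ICH-Fabp4CKO, and all 8 passed as higher after ICH in both genotypes. Lyz2 and Gpnmb made up most of these sums, with 4381, 908 and 7915 CPM and 3657, 588 and 7757 CPM in ICH-Fabp4CKO. In each ICH group 5 of the 8 had the order given above, Lyz2, F13a1, Mrc1 and Gpnmb in both, while Ccr2 and Ly6c2 had it in neither. Microglial markers summed to 1806, 1622 and 1740.3 CPM and to 3256, 1780.4 and 4643 CPM in these groups, against 422 to 514 CPM in sham. Neutrophil markers, with Ly6g at 0 in 7 libraries and at most 18 counts, summed to 23.5, 6.49 and 4.73 CPM and to 99.4, 13.6 and 169 CPM, with 3 of 8 in that order in each group. All 7 endothelial markers had the order of mice 1, 2 and 3 in ICH-Fabp4flox/flox, where all 7 rose with ICH, and none had the order of mice 3, 1 and 2 in ICH-Fabp4CKO, where 3 rose. For 7 of 8 neuron markers the order of the mice was the reverse in each ICH group, and the 8 summed to 1363 to 3920 CPM in ICH-Fabp4flox/flox and to 1449 to 4221 CPM in ICH-Fabp4CKO against 4125 to 5516 CPM in sham. The part of these cell types in the lipid gene results was not tested.

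**Figure D3:**
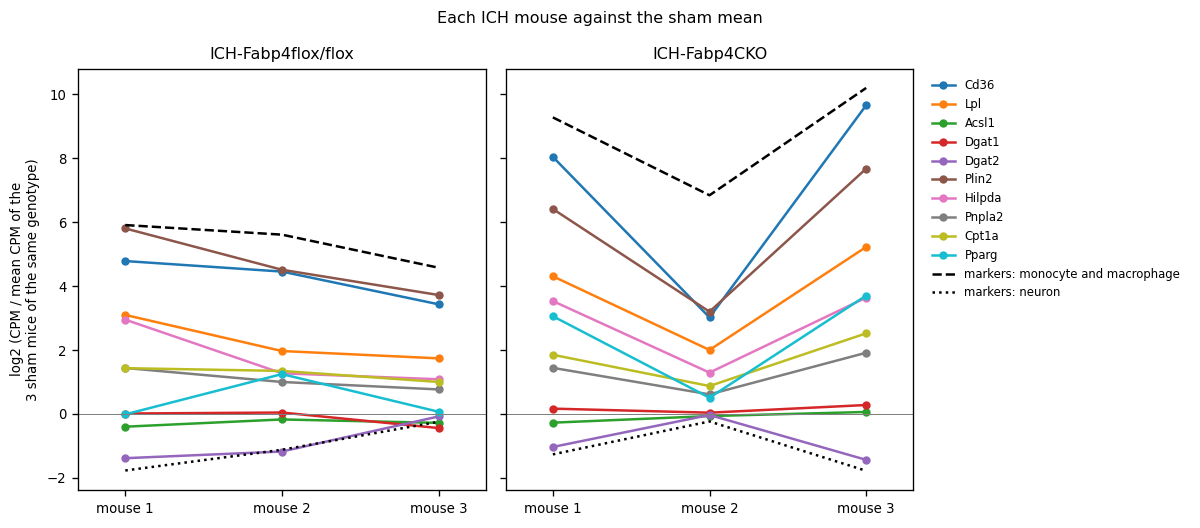
Log2 ratio of each ICH mouse to the mean CPM of the 3 sham mice of its genotype, for the 10 lipid genes (colored points, joined per gene only to help the eye) and for the summed monocyte and macrophage (dashed) and neuron (dotted) markers. In ICH-Fabp4CKO, mouse 2 is lowest for Plin2, Cd36, Lpl, Hilpda, Pnpla2, Cpt1a, Pparg and the macrophage markers, and highest for Dgat2 and the neuron markers.

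Per kilobase of exon, the order of the levels changed with ICH. Dgat2 led in both sham groups, at 25.2 ± 7.92 CPM per kb (SD, n = 3) in Fabp4flox/flox and 28.8 ± 5.38 in Fabp4CKO, followed by Pnpla2, Acsl1 and Cpt1a without overlap between neighbours. Dgat1, Hilpda, Plin2 and Lpl came next, between 2.32 and 3.42 CPM per kb on average, each overlapping its neighbour, and Cd36 and Pparg were last. After ICH Plin2 had the highest mean. It was 77.3 ± 56.5 CPM per kb in Fabp4flox/flox, where Plin2 overlapped no other gene. In Fabp4CKO it was 231 ± 228, and Plin2 overlapped Cd36, Lpl, Hilpda, Pnpla2, Dgat2 and Cpt1a. There Dgat2 (28.2) lay above Plin2 (21.3) in mouse 2. The 6 genes from Pnpla2 to Lpl overlapped in ICH-Fabp4flox/flox, with means between 12.4 and 18.1 CPM per kb. Acsl1, Dgat1 and Pparg had the lowest means in both ICH groups, in that order and without overlap among them. Cd36 of ICH-Fabp4CKO mouse 2, at 2.45 CPM per kb, lay below Acsl1 and Dgat1.

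The other genes of the pathway, 100 in 7 lists set by role, were counted in the same tests. In Fabp4flox/flox 39 of the 89 tested rose and 14 fell after ICH, and in Fabp4CKO 36 of 90 rose and 3 fell. Each count below is to be read beside the share of all genes called by the same rule, 26.2% higher and 19.3% lower in Fabp4flox/flox and 24.5% higher and 11.1% lower in Fabp4CKO. Between genotypes none passed, either after ICH (89 tested) or in sham (87 tested), and 12 in each comparison had an unadjusted p under 0.05, close to the 12.2% and 10.2% of all genes that did. Genes named below had the largest changes in their list and direction among those past the threshold.

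Among 17 uptake and transport genes, 7 rose and 3 fell in Fabp4flox/flox (median log2 fold change 0.29), and 8 of 18 rose in Fabp4CKO (median 0.53). The scavenger receptor Msr1 went from 0.202 ± 0.0899 to 103 ± 79.2 CPM (SD, n = 3) in Fabp4flox/flox. In Fabp4CKO, where sham libraries held at most 3 counts, its mean was at least 1625-fold higher after ICH, with mice from 24.8 to 399 CPM. Olr1, a receptor for oxidized lipoprotein, had a mean at least 25.1-fold higher there, with mice from 0.746 to 4.85 CPM. Angptl4, an inhibitor of lipoprotein lipase, rose in Fabp4flox/flox by 4.06 on the log2 scale (adjusted p = 0.000341, quasi-likelihood test), while Slc27a2, a very long-chain acyl-CoA synthetase, and the fatty acid carrier Fabp3 fell, with log2 fold changes of -1.69 and -0.98. Of 5 acyl-CoA synthetases beside Acsl1, Acsl5 (0.79) and Acsbg1 (0.52) rose and Acsl3 (-1.08) and Acsl4 (-0.58) fell in Fabp4flox/flox. Acsl5 alone passed in Fabp4CKO, with 1.40.

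Of 13 genes of glycerolipid and sterol ester synthesis, 4 rose and 1 fell in Fabp4flox/flox and 5 rose in Fabp4CKO, with medians of -0.05 and -0.10. Soat2, which esterifies cholesterol, held at most 1 count in Sham-Fabp4flox/flox and 14 to 34 counts after ICH, with a mean at least 9.72-fold higher. In the same mice Lpin3 rose by 3.28 and Lpin2, also a phosphatidate phosphatase, fell by 0.81 on the log2 scale. Agpat2, an acyltransferase of phosphatidate synthesis, rose by 2.99 in Fabp4CKO. Among 11 other droplet coat and biogenesis genes, 3 rose and 3 fell in Fabp4flox/flox, with the rising share close to that of all genes, and 4 rose and 1 fell in Fabp4CKO. Plin3 (1.10 and 1.35) and the droplet assembly factor Ldaf1 (1.06 and 1.34) rose in both genotypes. Plin5 (-2.30) and Cidea (-0.97) fell in Fabp4flox/flox, and Fitm2 (-0.82) in Fabp4CKO. Plin1 and Cidec, droplet genes of fat cells, had at most 3 counts in any library.

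In the lipolysis list 3 of 6 other genes rose and 1 fell in Fabp4flox/flox and 1 of 6 rose in Fabp4CKO. Lipa, the acid lipase of lysosomes, had the largest log2 fold change in both, 2.42 (SE 0.25) and 4.01 (SE 0.79). Lipe, hormone-sensitive lipase, rose by 0.74 and Abhd6, a monoacylglycerol lipase, fell by 0.49 in Fabp4flox/flox. Of 20 beta-oxidation genes beside Cpt1a, 14 rose and 1 fell in Fabp4flox/flox (median 0.65), and 10 rose in Fabp4CKO (median 0.68). The acyl-CoA dehydrogenases Acads (1.49 and 2.02) and Acadl (1.26 and 1.28) led in both, and Cpt1c, the brain form of the carnitine palmitoyltransferases, fell by 0.63 in Fabp4flox/flox. Of 17 transcription factors and co-regulators, 6 rose and 3 fell in Fabp4flox/flox and 7 rose and 2 fell in Fabp4CKO. Cebpb (3.21 and 2.97) and Cebpa (2.66 and 3.70), which act with Pparg in fat cell differentiation, rose in both. The co-activator Ppargc1b fell in both (-1.72 and -1.18), the co-repressor Ncor1 in Fabp4flox/flox (-0.61) and Rxrb, a partner of PPARs, in Fabp4CKO (-0.41).

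**Figure D4:**
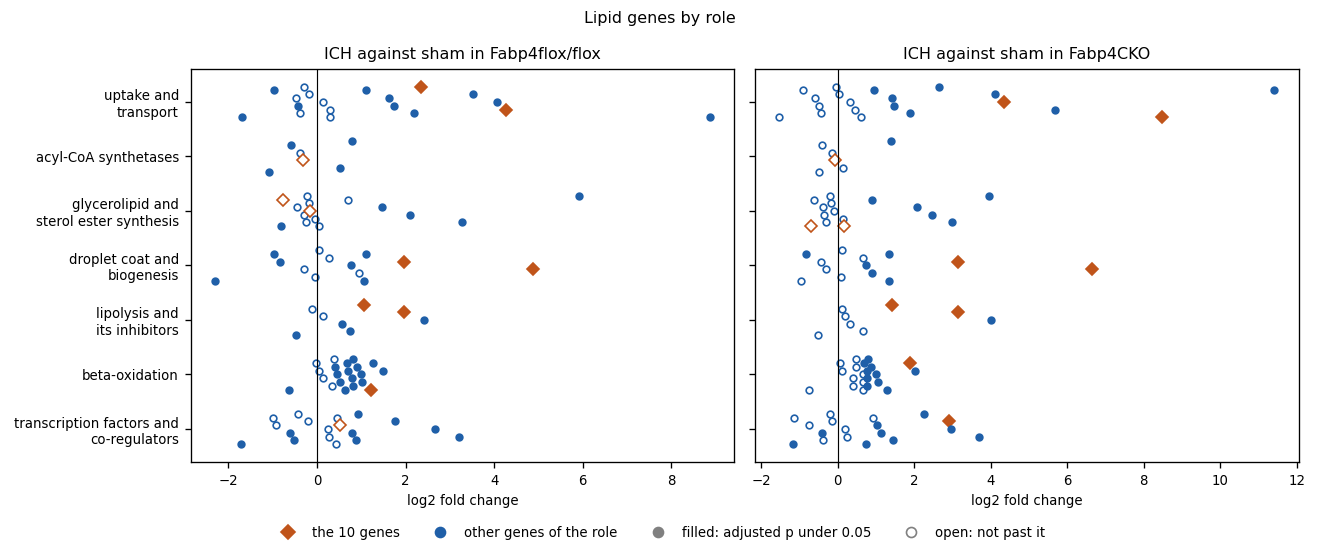
Log2 fold change of ICH against sham for the tested genes of the 7 role lists, the 10 lipid genes as diamonds and the others as circles, filled where the adjusted p was under 0.05. Hilpda stands in 2 lists. Most beta-oxidation genes sit to the right of 0 in both panels, while the acyl-CoA synthetases lie on both sides of it.

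Likeness to other genes was described by Pearson's r of log2 CPM over the 12 libraries, which share the ICH contrast and the order of mice. Nearest to Plin2 were Rnase4, Lgmn and Cotl1 (r = 0.998, 0.998 and 0.997), to Cd36 Serp1, Mmp14 and Lipa (0.993, 0.991 and 0.991) and to Lpl Tpp1, Wdr81 and Cspg4 (0.991, 0.990 and 0.987). Hilpda was nearest to Prss46, Tpd52 and Cspg4 (0.980, 0.979 and 0.978), Pnpla2 to Cln6, Ptp4a2 and Akr1a1 (0.996, 0.996 and 0.994) and Cpt1a to Adam17, Lipa and Vwa5a (0.996, 0.996 and 0.996). Dgat2 was nearest to Itpka, Zfyve28 and Phyhip (0.991, 0.982 and 0.982), and its r with Plin2 was -0.81. The nearest genes of Pparg were Golph3, Alkbh5 and Lrp6 (0.944, 0.931 and 0.922), those of Acsl1 Rpusd2, Csnk1g3 and Lingo4 (0.925, 0.896 and 0.880) and those of Dgat1 Caps2, Zfp967 and Fzd1 (0.901, 0.821 and 0.819). Among the 6 genes that rose in both genotypes every pairwise r was between 0.919 and 0.990.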

How the data were processed

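RNA sequencing of poly(A)-selected RNA on an Illumina NovaSeq was performed on hematoma-adjacent or sham brain tissue of 12 mice, 3 per group, each library from a single mouse. The authors deposited estimated counts per gene, without normalization, of which between 7.36% and 8.69% per library were not whole numbers, and these expected counts were rounded here. The submitters' processing notes name Bowtie2 2.2.8, HISAT2, StringTie 1.3.1 and DESeq2. The genome build, annotation and counting tool are not given in the sources used here, and how reads shared between related genes were divided is therefore unknown.

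Groups were compared with edgeR 4.0.16 in R 4.3.3 (TMM, filterByExpr with a minimum count of 10 and total of 15, quasi-likelihood F-test), on the 2 groups compared or on all 12 libraries for the interaction, with Benjamini-Hochberg adjustment over all genes tested and a threshold of 0.05. The study's methods do not state that test, and DESeq2 1.42.0 was an alternative. Other alternatives were relative log expression (RLE) or total-count scaling, no filter on low counts, at least 10 counts in every library, a block on replicate number, 1 fit over all 12 libraries, and each library left out in turn. The test was checked on simulated counts with changes of 1 or 2 on the log2 scale in either direction. For ICH in Fabp4flox/flox it called 20 of 95 and 86 of 104 changed genes. Between genotypes after ICH it called 2 of 96 and 58 of 101, and for the interaction 4 of 100 and 56 of 99. Most changes of 1 were thus missed in the simulations, where all other genes were left unchanged. In the data far more genes were called after ICH (26.2% higher and 19.3% lower in Fabp4flox/flox). The simulated rates for ICH therefore need not hold for the real comparison. Gene levels are TMM-normalized CPM. CPM per kb used exon lengths of GENCODE M21 (GRCm38), which matched 21804 of 21956 identifiers. Folds against groups at or under 3 counts in every library are bounds on the ratio of group means, set by 3 counts per library. They cover counting error only, not the spread between mice. Markers at 0 and low genes are limited by depth in the same way. Promoters came from RefSeq (GRCm38.p6). Lpl, Dgat1 and Dgat2 were not matched.

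The 10 genes, the role and marker lists and the tests were chosen with earlier results of these data known. Named were the 10 genes, Fabp4, up to 2 further genes per role list and direction with the largest change among those past the threshold, the 3 with the smallest p in comparisons where none of the role lists passed, and the 3 genes most like each of the 10. With 3 mice against 3 an exact permutation test cannot reach a p below 0.1, so none was run.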

Additional observations from a re-analysis of the deposited data

How the results depend on the processing

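Leaving out 1 mouse at a time mattered most. The number of the 10 genes called higher after ICH ranged from 5 to 6 in Fabp4flox/flox and from 0 to 7 in Fabp4CKO, and the number called lower from 0 to 1 in each. The called lower gene was Dgat2. For the genotypes, the number called lower in sham ranged from 0 to 1, and for the interaction the number called higher from 0 to 2. Over all genes, calls ranged from 1465 to 3856 lower for ICH in Fabp4flox/flox, from 701 to 5203 higher and 50 to 4896 lower for ICH in Fabp4CKO, from 0 to 2 higher for the genotypes after ICH, from 0 to 1531 higher and 0 to 1331 lower for the genotypes in sham, and from 0 to 260 higher and 0 to 111 lower for the interaction. Signs turned only in such fits and only for estimates that never passed, with log2 fold changes from -0.038 to 0.73 for Pparg after ICH in Fabp4flox/flox, between genotypes after ICH from -0.00055 to 0.24 for Dgat1, -0.23 to 0.80 for Dgat2 and -0.18 to 0.43 for Pnpla2, in sham from -0.050 to 0.26 for Lpl, -0.26 to 0.011 for Dgat1 and -0.17 to 0.085 for Hilpda, and in the interaction from -0.46 to 0.57 for Dgat2 and -0.0091 to 0.60 for Pnpla2.

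DESeq2 called Acsl1 lower after ICH in Fabp4flox/flox (-0.36), giving 1 lower gene of the 10. Over all genes it called 3541 lower for ICH in Fabp4CKO, 255 higher and 323 lower for the genotypes after ICH, 11 higher and 139 lower in sham, and 183 higher and 83 lower for the interaction. A single fit over all 12 libraries called 2558 lower for ICH in Fabp4CKO, and 154 higher and 208 lower for the genotypes after ICH, none of them among the 10. At least 10 counts in every library gave 2 genes lower in sham and 1 higher for the interaction, and left Pparg untested in the 3 fits with sham knockout libraries. RLE scaling, total counts and no filter changed no call of the 10. The causes of these shifts were not tested.

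The replicate numbers do not mark shared animals. Deviations of same-numbered mice correlated at 0.196, 0.0230 and 0.127 for ICH in Fabp4flox/flox and below 0.1 on average in the other comparisons. With the number as a block, Dgat2 passed as lower after ICH in Fabp4flox/flox (-0.86), the 1 lower gene there, Pparg lost its call in Fabp4CKO (2.61, which left 6 higher), and no other call of the 10 changed. The interaction then called 1 gene higher and 0 lower of all genes. With 3 mice a group, the wide intervals between genotypes limit what these data can show.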
